A study of Mus musculus with 9 samples.

Results

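The genes described here make, release and store glucose in the liver, and 9 of the 22180 genes measured belong to the group. They were taken by name as Pck1, G6pc, Fbp1, Pcx, Gckr, Slc2a2, Slc37a4, Gys2 and Pygl, and all 9 were found, each with 1 probe set of its own on the array. Liver RNA of C57BL/6 mice, 5 weeks old at the start, was hybridised to whole-transcript microarrays in 3 groups of 3 arrays. The first group ate a regular diet and received vehicle, the next ate a high-fat diet and received vehicle, and the last ate the high-fat diet and received ginseng flower bud extract at 500 mg/kg by mouth once a day, for 12 weeks. All livers were collected after an overnight fast, so every group was fasted. No genetic change is named in any group, and the strain is entered as C56BL/6J. Whether the 3 arrays of a group came from different mice is not stated, and p-values therefore reflect only the variation among these samples, which may be technical.

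In a fasted liver, glucose is made from lactate, amino acids and glycerol and is also split off stored glycogen. Pcx encodes pyruvate carboxylase, which opens the pathway by making oxaloacetate from pyruvate, Pck1 encodes the cytosolic phosphoenolpyruvate carboxykinase, and Fbp1 encodes fructose-1,6-bisphosphatase. G6pc encodes the catalytic subunit of glucose-6-phosphatase, the last step of both routes, and Slc37a4 encodes the transporter that brings glucose 6-phosphate to it in the endoplasmic reticulum. Slc2a2 encodes GLUT2, through which glucose crosses the hepatocyte membrane, and Gckr encodes a regulatory protein of hepatic glucose metabolism. Gys2 and Pygl encode the liver forms of glycogen synthase and glycogen phosphorylase. Glucagon and glucocorticoids raise and insulin lowers the transcription of Pck1 and G6pc.

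Values are log2 expression values, on which a difference of 1 is a 2-fold difference, and they are compared for each gene between arrays and not between genes. A gene is said to have risen or fallen where limma's p, adjusted by Benjamini-Hochberg over all 22180 genes, was under 0.05. Array medians lay between 4.34 and 4.38, and the correlation across genes was 0.991 to 0.994 within groups and 0.987 to 0.993 between groups. All 9 genes were bright, from the 95.6th percentile of gene means for Pygl to the 99.7th for Pck1. Among these genes, regular-diet replicate 1 lay with the high-fat arrays for Gys2, Gckr and Pygl, and extract replicate 3 lay near the regular-diet arrays for Pck1 and Pygl.

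Pck1 and G6pc had lower means in both high-fat groups and stayed at a narrow high level on the regular diet. Pck1 stood at 12.20, 12.47 and 12.39 on the regular diet, at 11.21, 11.63 and 11.54 on the high-fat diet, and at 11.08, 11.55 and 12.29 with extract. The regular-diet and high-fat diet arrays did not overlap, whereas extract replicate 3 lay inside the regular-diet range. The difference of the high-fat diet from the regular diet was -0.89 ± 0.26 (standard error, n = 3 per group), or 53.8% of the regular-diet level, and did not pass (limma adjusted p = 0.151). With extract it was -0.71 ± 0.26 (limma adjusted p = 0.312). Without extract replicate 3, Pck1 fell in the high-fat against the regular diet (-0.89, limma adjusted p = 0.0471), where the array is not among those compared and acts through the shared estimate of spread. The difference with extract was then -1.04 and did not pass (limma adjusted p = 0.0717), and it was -0.44 without extract replicate 1. With all high-fat arrays together Pck1 stood at -0.80 ± 0.22 (limma adjusted p = 0.128), and without extract replicate 3 it fell there (-0.97, limma adjusted p = 0.0279).

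G6pc stood at 10.99, 11.13 and 11.13 on the regular diet, at 10.25, 10.85 and 10.60 on the high-fat diet, and at 9.77, 10.98 and 10.85 with extract. All 6 high-fat arrays lay below all 3 regular-diet arrays, with extract replicate 2 just below the lowest of them. The spread with extract was 0.66 (SD, n = 3), against 0.08 on the regular diet. The differences from the regular diet were -0.52 ± 0.28 on the high-fat diet and -0.55 ± 0.28 with extract (limma adjusted p = 0.489 and 0.494). The latter was -0.17 without extract replicate 1, the lowest array, and was not called there. Over the 9 arrays Pck1 and G6pc correlated at 0.833, and at 0.767 after each group's mean was subtracted, given as a description of arrays that share their groups.

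Promoter sequences are shown for Pck1 and G6pc, since their values moved together between arrays, and for Fbp1, whose arrays were the least spread of the gluconeogenic genes that lay apart by diet. Each window runs from 250 bases before to 50 bases after the RefSeq start of the gene in GRCm38.p6. The windows are chr2:173152823-173153122 on the plus strand for Pck1, chr11:101367466-101367765 on the plus strand for G6pc and chr13:62888233-62888532 on the minus strand for Fbp1, each written 5′ to 3′ along the gene. Capitals mark a match to a motif, on either strand.
Pck1: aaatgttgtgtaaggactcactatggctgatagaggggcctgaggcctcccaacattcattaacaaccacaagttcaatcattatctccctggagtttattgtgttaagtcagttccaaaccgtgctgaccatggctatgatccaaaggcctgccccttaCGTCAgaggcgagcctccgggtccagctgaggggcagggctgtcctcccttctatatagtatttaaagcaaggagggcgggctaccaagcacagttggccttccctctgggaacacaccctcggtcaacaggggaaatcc
G6pc: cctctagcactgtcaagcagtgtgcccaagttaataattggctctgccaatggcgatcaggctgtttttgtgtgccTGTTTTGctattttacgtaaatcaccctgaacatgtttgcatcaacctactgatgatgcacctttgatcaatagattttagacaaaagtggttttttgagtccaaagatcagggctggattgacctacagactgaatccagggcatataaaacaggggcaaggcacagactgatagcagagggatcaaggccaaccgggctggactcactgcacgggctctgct
Fbp1: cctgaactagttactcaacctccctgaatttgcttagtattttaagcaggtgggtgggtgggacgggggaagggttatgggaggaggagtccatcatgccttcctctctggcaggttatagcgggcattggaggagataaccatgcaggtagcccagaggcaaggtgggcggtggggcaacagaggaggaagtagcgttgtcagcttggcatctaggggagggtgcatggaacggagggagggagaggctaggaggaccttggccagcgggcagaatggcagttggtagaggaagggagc
The letters searched were TGACGTCA, the full cyclic AMP response element, and TGACG, its core, which every full element also contains. The others were GTAAACA for FOXO factors, CAAAACA for the core of an insulin response element and CACGTG for an E-box, and the longer DR1, glucocorticoid receptor (GRE) and HNF1 motifs, given here by name. Pck1 held the core TGACG once, on the minus strand at position -90 from the start, and G6pc held CAAAACA once, on the minus strand at position -174. The window of Fbp1 held none of the motifs searched. RefSeq windows were matched for 8 of the 9 genes, 11 windows in all, some of which overlap. The core TGACG was in 4 of these 11 windows and in 20.8% of all 32851 windows, and CAAAACA was in 2 of 11 and in 6.28%. CACGTG was in 1 of 11, a Pcx window, and in 7.15% of all. The 2 windows with CAAAACA belonged to G6pc and Gckr, and those with TGACG to Pck1, Pygl and Slc37a4. The Slc37a4 windows with TGACG overlap and 1 match lies in both, so the 4 windows are not 4 separate stretches. None of the 11 held TGACGTCA (1.79% of all) or GTAAACA (3.65%), nor the motifs DR1 (0.0396%), GRE (0.00913%) or HNF1 (0.00913%). A match is a stretch of letters and no measure of binding.

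**Figure D1:**
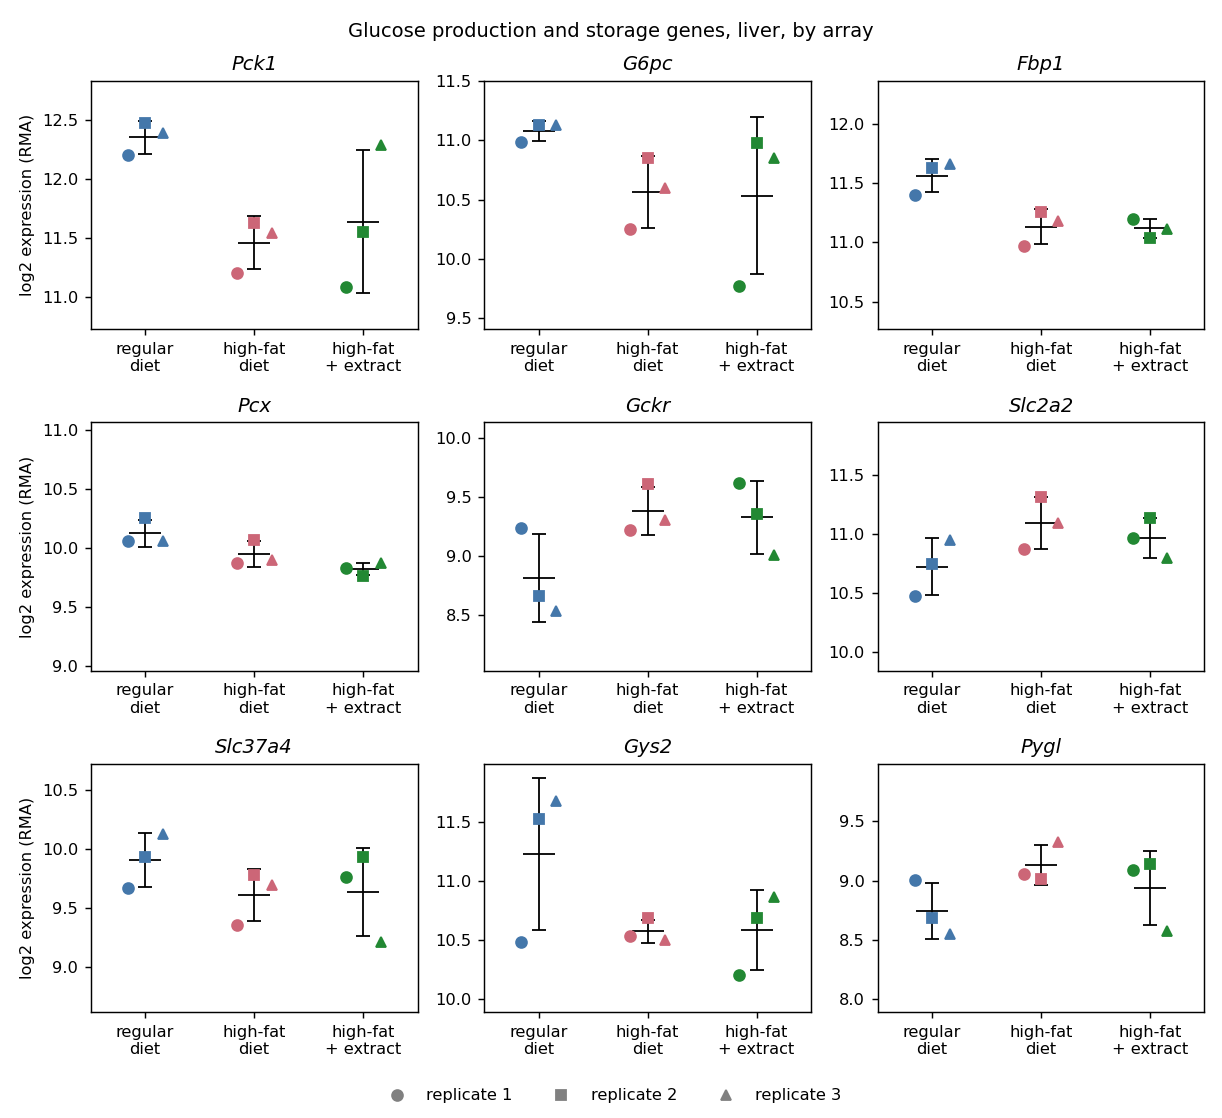
The plot of values by array gives the log2 expression of each gene (y axis, RMA, the same height of log2 units in each panel) in the 3 groups, with a point per array, a bar at the mean and whiskers of 1 SD. The regular-diet arrays of Pck1 lie at 12.20 to 12.47 and the high-fat diet arrays at 11.21 to 11.63, with 1 extract array at 12.29, and regular-diet replicate 1 of Gys2 lies at 10.49 among the high-fat arrays.

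Fbp1 was lower in all 6 high-fat arrays than in any regular-diet array and was the only gene of the group to pass with all 9 arrays in the fit. Its arrays lay at 11.40, 11.63 and 11.66 on the regular diet, at 10.97, 11.26 and 11.18 on the high-fat diet, and at 11.20, 11.04 and 11.12 with extract. The high-fat groups overlapped each other and not the regular diet. The differences were -0.43 ± 0.10 on the high-fat diet and -0.45 ± 0.10 with extract (limma adjusted p = 0.0863 and 0.124). When the 6 high-fat arrays were set together against the regular diet, Fbp1 fell by 0.44 ± 0.09, to 73.8% of the regular-diet level (limma adjusted p = 0.0460). That call was kept without regular-diet replicate 1 (-0.52, limma adjusted p = 0.0289) and lost without any 1 of the 8 other arrays (limma adjusted p from 0.0589 without high-fat diet replicate 2 to 0.177 without regular-diet replicate 2). Without them, the difference stayed between -0.39 and -0.47. In the high-fat against the regular diet, Fbp1 passed without regular-diet replicate 1 (-0.51, limma adjusted p = 0.0482) and among the brighter genes alone (limma adjusted p = 0.0386).

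Pcx, at the entry of the pathway, differed less. Its values were 10.06, 10.26 and 10.05 on the regular diet, 9.87, 10.07 and 9.90 on the high-fat diet, and 9.83, 9.76 and 9.87 with extract. The high-fat diet arrays overlapped the regular-diet arrays, and the extract arrays lay below the regular-diet arrays. The differences were -0.18 ± 0.09 and -0.30 ± 0.09 (limma adjusted p = 0.420 and 0.204). Fbp1 and Pcx correlated at 0.839 over the 9 arrays, and at 0.582 after the group means were subtracted.

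Slc37a4, Slc2a2 and Gckr, the genes of transport and regulation, did not share a direction. Slc37a4 stood at 9.67, 9.93 and 10.12 on the regular diet, at 9.36, 9.78 and 9.69 on the high-fat diet, and at 9.76, 9.93 and 9.21 with extract. The groups overlapped, with extract replicate 3 the lowest of all arrays, and the differences from the regular diet were -0.30 ± 0.20 and -0.27 ± 0.20 (limma adjusted p = 0.577 and 0.636). The latter was -0.06 without extract replicate 3. Slc2a2 stood at 10.47, 10.75 and 10.95 on the regular diet, at 10.87, 11.31 and 11.09 on the high-fat diet, and at 10.97, 11.14 and 10.79 with extract. Its groups also overlapped, and its differences were above 0, at 0.37 ± 0.15 and 0.24 ± 0.15 (limma adjusted p = 0.334 and 0.585). Within groups the glucose 6-phosphate transporter and GLUT2 genes deviated together, with a correlation of 0.899 after the group means were subtracted, although their group means differed in opposite directions.

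Gckr had the largest positive difference of the 9. It stood at 9.24, 8.66 and 8.54 on the regular diet, at 9.22, 9.61 and 9.31 on the high-fat diet, and at 9.62, 9.35 and 9.01 with extract. Only regular-diet replicate 1 reached the high-fat arrays. The differences were 0.57 ± 0.21 and 0.52 ± 0.21 (limma adjusted p = 0.268 and 0.364). Without regular-diet replicate 1 they were 0.78 and 0.73 and still did not pass (limma adjusted p = 0.0802 and 0.113).

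The glycogen enzymes Gys2 and Pygl had opposite differences, the synthase below and the phosphorylase above its regular-diet mean. Gys2 stood at 10.49, 11.52 and 11.68 on the regular diet, at 10.54, 10.68 and 10.50 on the high-fat diet, and at 10.20, 10.68 and 10.87 with extract. Regular-diet replicates 2 and 3 lay above every high-fat array, and regular-diet replicate 1 lay among them. With all arrays the differences were -0.65 ± 0.29 and -0.64 ± 0.29 (limma adjusted p = 0.366 and 0.415). Without regular-diet replicate 1 Gys2 fell on the high-fat diet (-1.02, limma adjusted p = 0.0314), with extract (-1.01, limma adjusted p = 0.0430) and in all 6 high-fat arrays together (-1.02, limma adjusted p = 0.0192). Without regular-diet replicate 3 the high-fat diet difference was -0.43. The higher mean of Gys2 on the regular diet rested on 2 of its 3 arrays.

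Pygl stood at 9.01, 8.69 and 8.55 on the regular diet, at 9.05, 9.02 and 9.33 on the high-fat diet, and at 9.09, 9.14 and 8.58 with extract. The high-fat diet arrays lay above the regular-diet arrays, by little at the nearest pair of arrays, and extract replicate 3 lay within the regular-diet range. The differences were 0.39 ± 0.17 and 0.19 ± 0.17 (limma adjusted p = 0.376 and 0.718). The former was 0.52 without regular-diet replicate 1 (limma adjusted p = 0.221), and the latter was 0.37 without extract replicate 3. Over the 9 arrays Gys2 correlated with Pygl at -0.789 and with Gckr at -0.908, or at -0.736 and -0.833 after the group means were subtracted.

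Counted over the group, none of the 9 genes passed in the high-fat against the regular diet, where 1.34% of all genes did. Means were lower for 6 of 9 (49.9% of all genes), and unadjusted p was under 0.05 for 5 of 9 (13.3% of all genes). Groups did not overlap for 4 of 9, Pck1, G6pc and Fbp1 below and Pygl above, where 15.8% of all genes did not overlap. The median difference of the 9 was -0.30, and that of all genes was 0.00. With extract against the regular diet, 0 of 9 passed in limma (0.442% of all genes), 4 of 9 had an unadjusted p under 0.05 (12.1% of all genes), groups did not overlap for 3 of 9 (14.6% of all genes), means were lower for 6 of 9 (49.6% of all genes), and the median was again -0.30. The same 3 genes, Gckr, Slc2a2 and Pygl, had differences above 0 in both comparisons, which share the regular-diet arrays. With all 6 high-fat arrays together, Fbp1 was the 1 gene of 9 to pass (1.68% of all genes), 6 of 9 had an unadjusted p under 0.05 (14.2%), and the median was -0.29. In that comparison groups did not overlap for 2 of 9, G6pc and Fbp1 (7.9% of all genes), and means were again lower for 6 of 9 (49.4%). Without regular-diet replicate 1, the median on the high-fat diet was -0.42, and without high-fat diet replicate 1 it was -0.17. Since the genes were listed with results of these arrays known, the counts describe the list and do not test it.

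**Figure D2:**
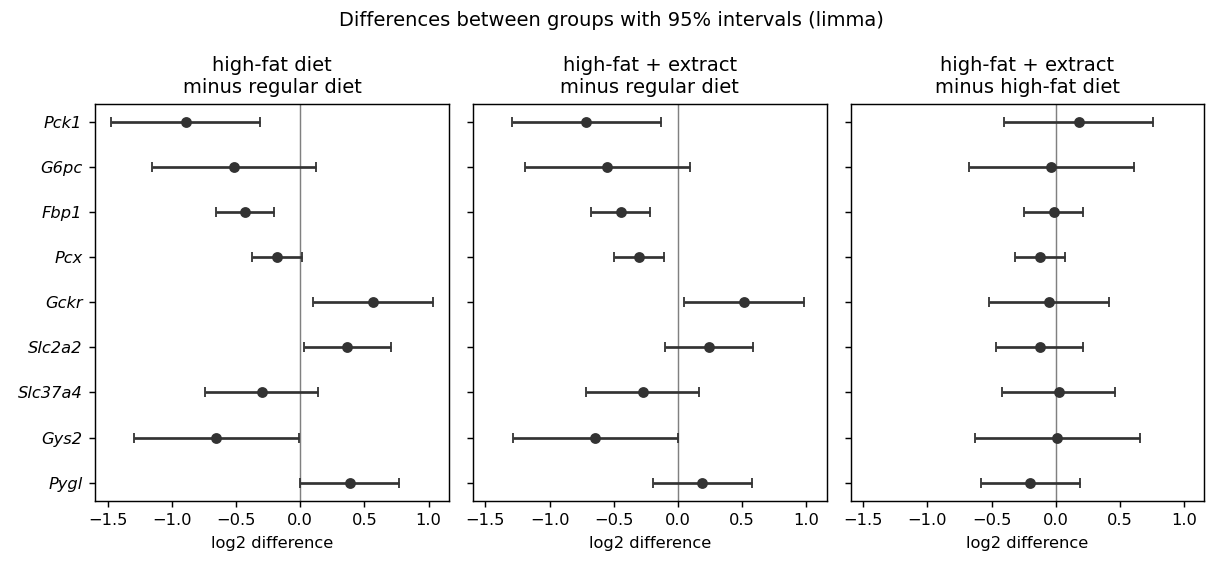
The plot of differences gives, for each gene, the log2 difference between groups (x axis, points) with its 95% interval from limma, not adjusted for the number of genes. In the right panel, high-fat diet with extract against high-fat diet alone, all 9 intervals cross 0. In both comparisons with the regular diet, the intervals of Fbp1 and Pck1 lie below 0 and that of Gckr lies above 0.

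Whether the extract moved these genes on the high-fat diet was asked by setting both high-fat groups against each other. None of the 9 passed (limma, 0.00451% of all genes passed), and 0 of 9 had an unadjusted p under 0.05, against 5.98% of all genes. The differences ran from -0.20 for Pygl to 0.18 for Pck1, with a median of -0.03, and no gene had groups apart (9.69% of all genes did). Means were lower with extract for 6 of 9 (50.5% of all genes). For Pck1 the difference was 0.18 with a 95% interval of -0.40 to 0.76 (limma adjusted p = 0.937), and without extract replicate 3 it was -0.14. For G6pc it was -0.03 with an interval of -0.67 to 0.61 (limma adjusted p = 0.992), and 0.35 without extract replicate 1. Fbp1 was measured more closely, at -0.02 with an interval of -0.24 to 0.21, and Pcx at -0.12 with an interval of -0.32 to 0.07. Gys2 stood at 0.01 (-0.63 to 0.66), Gckr at -0.05 (-0.52 to 0.41), Slc2a2 at -0.13 (-0.47 to 0.22), Slc37a4 at 0.02 (-0.42 to 0.46) and Pygl at -0.20 (-0.58 to 0.19). The intervals leave room for differences in either direction, and the lack of a call does not show that the extract and vehicle groups were alike. The spread of Pck1 and G6pc with extract, 0.61 and 0.66 (SD, n = 3), ranked with that of Gys2 on the regular diet, 0.65, as the widest among the 9 genes in any group.

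**Figure D3:**
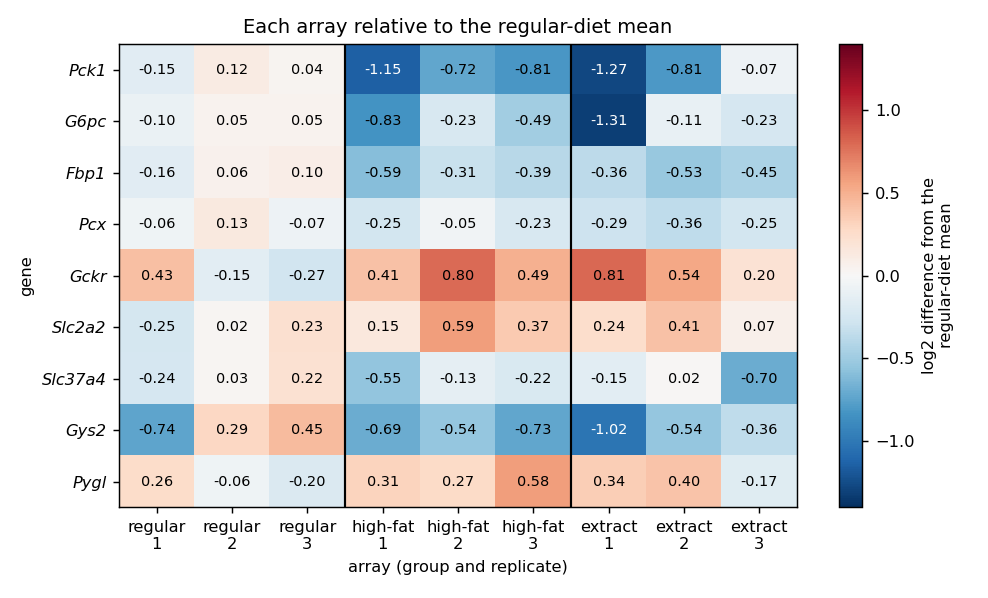
The heat map gives each array (x axis, group and replicate number as labelled) as the log2 difference of each gene (y axis) from its regular-diet mean, blue below and red above it. Extract replicate 1 reads -1.27 for Pck1 and -1.31 for G6pc, extract replicate 3 reads -0.07 for Pck1 and -0.70 for Slc37a4, and regular-diet replicate 1 reads -0.74 for Gys2.

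Arrays of one group held different genes at their extremes. Extract replicate 1 had the lowest value of all 9 arrays for Pck1, G6pc and Gys2 and the highest for Gckr. Extract replicate 3 had the lowest for Slc37a4 but lay at -0.07 from the regular-diet mean for Pck1, at 0.07 for Slc2a2 and at -0.17 for Pygl. Fbp1 and Pcx stayed low in that same array, at -0.45 and -0.25 from the regular-diet mean. Regular-diet replicates 2 and 3 together held the highest value of 6 of the 9 genes. The spread within groups of Gys2, G6pc and Pck1 (pooled SD 0.43, 0.42 and 0.38) lay above that of 97.6% or more of the genes brighter than the median gene, and that of Pcx (0.10) above 33.8%.

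Enzymes that run the pathway in the opposite direction were set beside these genes within each array, as the difference of log2 values relative to the regular-diet mean of that difference. Pklr, the liver pyruvate kinase of glycolysis, stood at 8.52, 8.35 and 8.04 on the regular diet, at 9.39, 9.96 and 9.92 on the high-fat diet, and at 9.14, 9.53 and 8.15 with extract. Its difference on the high-fat diet was 1.45 ± 0.31 and did not pass (limma adjusted p = 0.0643), but passed without extract replicate 3 (limma adjusted p = 0.0255). With all 9 arrays it passed under a variance trend with robust fitting (limma adjusted p = 0.0466) and among genes above the median brightness (limma adjusted p = 0.0320). These were the only 3 of 17 alternatives in which Pklr passed. In the others the limma adjusted p reached 0.197, and over all 17 the difference lay between 1.32 and 1.63. Relative to Pck1, Pklr lay at 2.23, 2.38 and 2.42 in the high-fat diet arrays, at 2.11, 2.03 and -0.09 with extract, and at 0.37, -0.07 and -0.30 on the regular diet. Of the 6 high-fat arrays, extract replicate 3 alone lay in the regular-diet range. Relative to Fbp1, Pfkl, the liver phosphofructokinase gene, lay at 0.42 ± 0.12 on the high-fat diet and 0.45 ± 0.18 with extract (SD, n = 3). On the regular diet this pair lay at 0.27, -0.10 and -0.17 (SD 0.235), with replicate 1 close below the lowest high-fat array, at 0.33. Pfkl itself had a difference of -0.01 ± 0.08 on the high-fat diet. Gys2 relative to Pygl lay at -0.998, -0.81 and -1.31 on the high-fat diet, at -1.37, -0.94 and -0.19 with extract, and at -1.0, 0.35 and 0.65 on the regular diet, where replicate 1 fell among the high-fat arrays. These within-array differences describe how the genes of a pair stood to each other and carry no test.

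**Figure D4:**
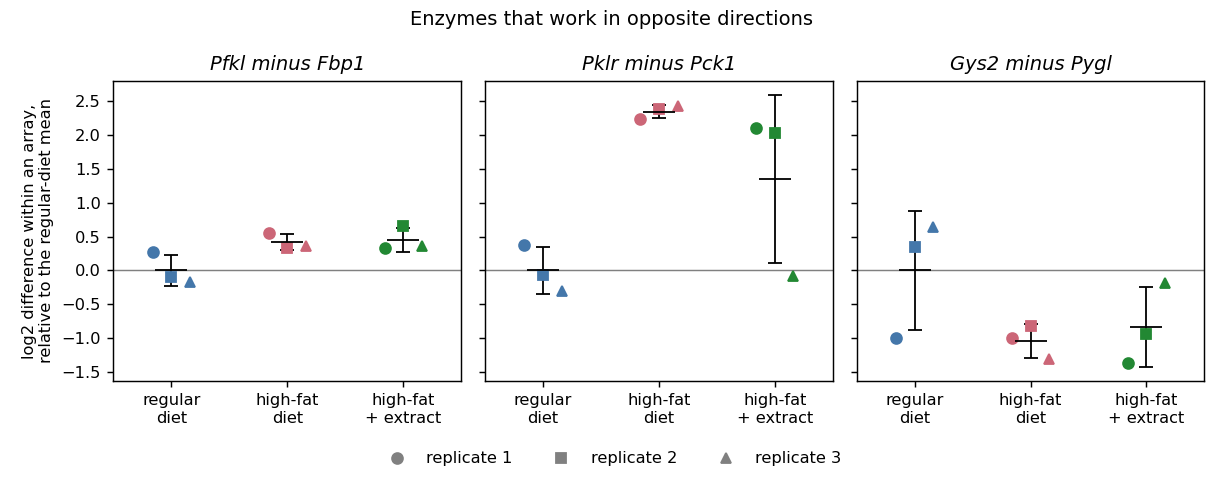
The plot of opposing enzymes gives, for each array, the log2 difference between the genes of a pair relative to its regular-diet mean (y axis), with a bar at the group mean and whiskers of 1 SD. Pklr minus Pck1 lies between 2.03 and 2.42 in 5 high-fat arrays and at -0.09 in extract replicate 3.

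Around the group, few other genes of glucose metabolism passed. Of 16 measured genes of glycolysis, 0 passed in limma in the high-fat against the regular diet (1.34% of all genes). An unadjusted p under 0.05 was found for 5 of them (13.3% of all genes), and the median was 0.00. Of 18 genes of pyruvate and substrate supply, Got1 passed, the cytosolic aspartate aminotransferase that helps carry oxaloacetate carbon out of mitochondria. It stood at 10.07, 11.09 and 11.56 on the regular diet, at 8.56, 8.96 and 9.10 on the high-fat diet, and at 9.36, 9.51 and 10.27 with extract. It fell 4.09-fold on the high-fat diet (-2.03 ± 0.36, limma adjusted p = 0.0340). The call was kept without regular-diet replicate 1 or extract replicate 3 and lost without any 1 of the 7 others (limma adjusted p from 0.0590 to 0.122), with the difference between -2.45 and -1.71 over all 9. It was also lost when only the 6 arrays compared were fitted (limma adjusted p = 0.112). With extract Got1 stood at -1.20 from the regular diet and did not pass, but fell without regular-diet replicate 1 (-1.61, limma adjusted p = 0.0429). The extract arrays lay above the high-fat diet arrays for Got1, by 0.84 ± 0.36 between means, which did not pass (limma adjusted p = 0.829).

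Of 17 measured genes of glycogen handling, 0 passed in limma on the high-fat diet (1.34% of all genes). Among them 5 had an unadjusted p under 0.05 (13.3% of all genes), and the median was 0.13. Gbe1, the glycogen branching enzyme gene, had the smallest p, at 0.78 ± 0.19 (limma adjusted p = 0.103), and Stbd1, which encodes a glycogen-binding protein, stood at -0.37 ± 0.09 (limma adjusted p = 0.111). Ppp1r3g, which encodes a glycogen-targeting subunit of protein phosphatase 1, stood at -0.85 ± 0.26 in all high-fat arrays together (limma adjusted p = 0.159). Of 21 measured regulators of glucose production, 7 had an unadjusted p under 0.05 (13.3% of all genes), and Irs2, an insulin receptor substrate gene, passed. It stood at 6.81, 7.19 and 6.89 on the regular diet, at 5.98, 6.06 and 6.00 on the high-fat diet, and at 6.45, 6.83 and 6.90 with extract. It fell on the high-fat diet by 0.95 ± 0.13 (limma adjusted p = 0.0145), a call lost without regular-diet replicate 2 and without high-fat diet replicates 1 or 3 (limma adjusted p from 0.0518 to 0.0645), and with only the 6 arrays compared in the fit (limma adjusted p = 0.0579). With extract Irs2 lay above the high-fat diet arrays without overlap, by 0.71 ± 0.13, which did not pass (limma adjusted p = 0.325). Median differences of the glycolysis, substrate, glycogen and regulator lists for extract against the high-fat diet were -0.07, -0.07, -0.08 and 0.08. There 0 of their genes passed (0.00451% of all genes), with 2, 2, 2 and 1 at an unadjusted p under 0.05 (5.98% of all genes).

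Of 10 measured genes that respond to fasting, 8 had lower means on the high-fat diet than on the regular diet (49.9% of all genes). With extract 7 had lower means than on the regular diet (49.6% of all genes). On the high-fat diet 0 passed in limma (1.34% of all genes), with 5 at an unadjusted p under 0.05 (13.3%) and a median of -0.34. This list shares Ppargc1a with the regulators and Pdk4 and Tat with substrate supply, so these genes were counted in each. Ppargc1a, which encodes a coactivator of Pck1 and G6pc transcription, stood at -1.04 ± 0.31 (limma adjusted p = 0.170), and Igfbp1, which insulin represses, at -1.88 ± 0.57 (limma adjusted p = 0.175). The mean of the list relative to the regular-diet mean was -0.23, 0.11 and 0.12 in the regular-diet arrays, -0.67, -0.36 and -0.39 in the high-fat diet arrays and -0.72, -0.34 and -0.24 with extract. The mean of the 9 glucose genes ran beside it at -0.11, 0.06 and 0.06, then -0.36, -0.04 and -0.16, then -0.34, -0.11 and -0.22. Regular-diet replicate 1, high-fat diet replicate 1 and extract replicate 1 were the lowest of their groups on both measures. The part of the fasting response in the values of the 9 genes was not tested.

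The labelled tissue held its defining markers. All 9 measured hepatocyte markers were brighter than the median gene, Alb lay between 13.48 and 13.57 in every array, and the mean of the list varied from -0.03 to 0.08 relative to the regular diet. Of these, Cps1, the first enzyme of the urea cycle, fell on the high-fat diet (-0.66 ± 0.10, limma adjusted p = 0.0224), a call kept in 4 of 9 fits without 1 array and lost without regular-diet replicates 2 or 3 or any 1 high-fat diet array (limma adjusted p from 0.0527 to 0.0852), as it was with only the 6 arrays compared (limma adjusted p = 0.105). Of the kidney markers, the other tissue that makes glucose, 0 of 3 were brighter than the median gene: Umod reached 4.53, Slc34a1 4.86 and Slc12a1 3.24 at most. Hepatocytes near the portal vein express more of the gluconeogenic genes, and 4 markers of that zone were measured, Pck1 among them. Hal, histidine ammonia-lyase, fell on the high-fat diet (-0.76 ± 0.14, limma adjusted p = 0.0414), a call kept without regular-diet replicate 1 or extract replicate 2 and lost without any 1 of the 7 others (limma adjusted p from 0.0546 to 0.144), and also lost with only the 6 arrays compared (limma adjusted p = 0.0979). Ass1 read 5.57, 6.19 and 6.06 on the regular diet and 5.05, 5.03 and 5.51 on the high-fat diet, not far above the median gene mean of 4.74. Its difference was -0.75 ± 0.19 (limma adjusted p = 0.119), whereas Cyp2f2, of the same zone, stood at 0.37 ± 0.11 with high-fat diet arrays all above the regular-diet arrays (limma adjusted p = 0.181). Of 7 markers of the zone around the central vein, 6 had higher means on the high-fat diet, where 49.9% of all genes had lower means. Among the 7, 0 passed in limma (1.34% of all genes), with 3 at an unadjusted p under 0.05 (13.3%). The mean of the portal list was -0.63, -0.52 and -0.38 in the high-fat diet arrays and -0.62, -0.53 and -0.16 with extract, against -0.21, 0.13 and 0.08 on the regular diet. The mean of the macrophage list, of which 7 of 7 were brighter than the median gene, ranged from -0.33 to 0.34 on the regular diet, from -0.11 to 0.15 on the high-fat diet and from -0.27 to 0.28 with extract. Of 6 stellate cell markers, the collagen genes Col1a1 and Col3a1 rose on the high-fat diet (0.85 ± 0.12 and 1.14 ± 0.14, limma adjusted p = 0.0152 and 0.0115). The list had 3 members with higher and 3 with lower means there and a median of 0.00, with Dcn, the decorin gene, at -0.38 ± 0.11 (limma adjusted p = 0.149). The part of zone or cell makeup in the values was not tested, and in bulk tissue fewer cells of a type cannot be told apart from less RNA per cell.

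None of the related genes with a similar product passed in limma in any of the 4 comparisons. Of all genes, 1.34% passed on the high-fat diet and 0.442% with extract, each against the regular diet. That share was 1.68% in all high-fat arrays together and 0.00451% for extract against the high-fat diet. Of the 14 related genes, 9 were brighter than the median gene. For extract against the high-fat diet, 1 had an unadjusted p under 0.05 (5.98% of all genes). Against the regular diet that number was 2 with extract (12.1%), 2 in all high-fat arrays (14.2%) and 1 on the high-fat diet (13.3%). On the high-fat diet that gene was G6pc3, the widely expressed glucose-6-phosphatase, at 4.98, 5.11 and 5.10 on the regular diet and 5.35, 5.42 and 5.31 on the high-fat diet (0.30 ± 0.09, limma adjusted p = 0.163), opposite in sign to G6pc. Pck2, the mitochondrial phosphoenolpyruvate carboxykinase gene, stood at -0.16 ± 0.09 and Gys1, the muscle glycogen synthase gene, at -0.12 ± 0.09 (limma adjusted p = 0.521 and 0.634). Pygm and Fbp2, the muscle forms, had means under the median gene mean of 4.74 in all 3 groups.

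The genes most like the mean of the 9 over the 9 arrays, among 10369 others brighter than the median gene (predicted and small RNA genes passed over), were Lpl at a Pearson correlation of 0.962, Mrps28 at 0.951, Pgk1 at 0.941, Snx6 at 0.933 and Actr3 at 0.923. Lpl encodes lipoprotein lipase and Pgk1 a phosphoglycerate kinase that works in both directions of the pathway. At the other end lay Dph6 and Fbxl8 at -0.946 each, Fgb, the fibrinogen beta chain gene, at -0.945, Mx2, an interferon-induced gene, at -0.934 and Wdfy1 at -0.923. For single genes the nearest were Eif3i for Pck1 (0.966), Cyrib for G6pc (0.980), Ufc1 for Fbp1 (0.980), Cox4i1 for Pcx (0.949), Apoa2 for Gckr (0.978), Tmem185a for Slc2a2 (0.981), Osbpl1a for Slc37a4 (0.966), Cib3 for Gys2 (0.972) and Tcta for Pygl (0.950). Acadl, a gene of mitochondrial fatty acid oxidation, was second for Fbp1 (0.974), and Acss2, the acetyl-CoA synthetase gene, for Slc2a2 (0.965). These correlations describe 9 arrays that share their group means, picked as the highest among many genes.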

How the data were processed

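Liver RNA was measured on 9 whole-transcript arrays, 3 per group. The authors deposited RMA values on a log2 scale for each probe set, and the submitters' processing notes name oligo as the tool. RMA subtracts background and quantile-normalizes arrays, so a shift shared by most genes would be removed. Versions and the genome build are not given in the sources used here. For each gene the probe set with 1 gene symbol (23521 of 41345) and the highest mean was used, which left 22180 genes.

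Comparisons used limma 3.58.1 (R 4.3.3), with a mean for each group fitted to all 9 arrays (6 residual degrees of freedom) and Benjamini-Hochberg adjustment over all genes, two-sided, at 0.05. An exact permutation test of 3 arrays against 3 cannot go below p = 0.1 and was not used. Intervals are at 95% for a difference between group means, from limma's standard error, and do not give the range of single arrays. The number of arrays limits their precision. The fit was tested on simulated data with 22180 genes for the high-fat against the regular diet, and found 41.6% of the genes given a change of 0.5 (log2), 87.6% of those given 1 and 98.8% of those given 2, with 57 of 846 calls false and 0 calls where nothing was changed. The changed genes were drawn at random from all genes. These shares do not apply to Gys2, G6pc and Pck1. Their spread lay above that of 97.6% or more of the genes brighter than the median gene. Nor do the shares apply to Gckr, Slc37a4, Pygl and Slc2a2, whose spread lay above that of 87.2% or more of those genes. The 9 genes, the gene lists, the naming rule (all 9, the related genes, the called or 2 lowest-p genes of each list, opposing enzymes and the nearest genes by correlation) and the alternatives were chosen with earlier results of these data known. Listed genes without a probe set of their own were not analysed here. Promoter sequences are from RefSeq, assembly GRCm38.p6.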

Additional observations from a re-analysis of the deposited data

How the results depend on the processing

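The signs of all 9 genes against the regular diet were kept in every alternative run. In the high-fat against the regular diet 149 of 153 gene and setting combinations kept their side of the threshold and 4 moved past it. For extract against the regular diet this held for 152 of 153, and for the 6 high-fat arrays together for 133 of 144, with 9 losses, all of Fbp1. The last comparison uses all arrays, so a fit of the compared arrays alone was no alternative there.

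Of the 9 genes, the number called on the high-fat diet, 0 in the main setting, was 1 among genes above the median brightness (Fbp1), 1 at an adjusted p under 0.10, and 0 to 2 when 1 array was left out. For extract against the regular diet it was 0 to 1 when 1 array was left out. For the 6 high-fat arrays together it was 1, and 0 with the replicate block, 0 with a fold of at least 1.5, and 0 to 2 when 1 array was left out. The median of the 9 moved between -0.42 and -0.17 on the high-fat diet when 1 array was left out, and between -0.41 and -0.22 for the 6 arrays together. Over all genes, the 297 calls on the high-fat diet were 597 among genes above the median brightness, 15 with only the arrays compared, 611 at an adjusted p under 0.10, 171 with a fold of at least 1.5, and 58 to 452 when 1 array was left out. For extract against the regular diet, the 98 calls were 232, 34 and 216 in the first 3 of these settings, and 2 to 267 when 1 array was left out. For extract against the high-fat diet the 1 call was 4 among genes above the median brightness, 0 with arrays shifted to the same median, 3 with array weights, 0 with only the arrays compared, 4 at an adjusted p under 0.10, and 0 to 3 when 1 array was left out. For the 6 arrays together the 372 calls were 707 among genes above the median brightness, 231 with the replicate block, 760 at an adjusted p under 0.10, 164 with a fold of at least 1.5, and 63 to 553 when 1 array was left out. The cause of these shifts was not tested.

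Signs turned only in extract against the high-fat diet. With array weights, Gys2 stood at -0.043. With 1 array left out, Pck1 ranged from -0.14 to 0.46, G6pc from -0.26 to 0.35, Fbp1 from -0.10 to 0.045, Gckr from -0.20 to 0.11, Slc37a4 from -0.12 to 0.23, Gys2 from -0.13 to 0.20 and Hal from -0.14 to 0.13. The labels do not say whether the replicate numbers pair the arrays. Same-numbered arrays deviated from their group means with correlations from -0.074 to 0.321. Differently numbered arrays were not set beside them, so these correlations cannot decide whether arrays were paired. The replicate block ended the call of Fbp1 in the 6 arrays together (limma adjusted p = 0.0720) and changed no other call among the 9, and it ended that of Hal on the high-fat diet (limma adjusted p = 0.0603). The number of arrays, 3 in each group, limits the precision of every value.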

Other observations

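Ppp1r3c, which encodes a glycogen-targeting subunit of protein phosphatase 1 and was singled out after its values were seen, stood at 8.86, 6.84 and 6.02 on the regular diet, at 7.66, 7.72 and 7.03 on the high-fat diet, and at 7.86, 7.21 and 6.29 with extract. Its highest array was regular-diet replicate 1, where Gys2 was lowest of that diet, and its values on the regular diet spanned more than those of any of the 9 genes described above. The difference between the high-fat and regular diets was 0.23 ± 0.65 (limma adjusted p = 0.925).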
